A study of Mus musculus with 8 samples.

Results

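SOX9 signal was summed over whole protein-coding genes of the mouse spinal cord and compared between cords taken 1 day after a contusion injury (1 dpi) and uninjured cords. The libraries were chosen by antibody and condition, which gave 4 of the 8 CUT&Tag libraries of the series: 2 SOX9 libraries at 1 dpi and 2 from uninjured cords, each group with 1 male (M) and 1 female (F) library. Of 21755 protein-coding genes on the autosomes and X, 16588 held a mean of at least 10 fragments per SOX9 library and were tested, and 5167 did not. The remaining 4 libraries were secondary-only controls, which received no SOX9 antibody. All mice were wild-type C57BL/6, and the study's methods give an age of 8 to 12 weeks at entry. Injured mice received a contusion at thoracic level 9 and were taken after 1 day, and uninjured mice received no injury. Nuclei were isolated from frozen segments of 5 mm around the injury, or from the same level of uninjured cords, and were sorted on the DNA stain 7AAD. Each sample gave 150000 nuclei, of which 20% were set aside as secondary-only controls. The M and F libraries come from different animals, so sex and animal cannot be told apart. The sample labels name no marker of a cell type for the sort. The study's methods refer to its earlier protocol, in which nuclei were stained for NEUN or SOX10 and with 7AAD before sorting. They do not state whether those antibodies were used to select nuclei here.

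SOX9 is a transcription factor of the SOX family that binds DNA through a high mobility group domain. It helps to specify glia in the developing nervous system, and in the adult spinal cord it is found chiefly in astrocytes and ependymal cells. After injury astrocytes become reactive: they make more of the intermediate filament proteins GFAP and vimentin and respond to cytokines through STAT3 and NF-kappaB. In CUT&Tag an antibody brings a transposase to the protein it binds, and the DNA fragments released there are sequenced.

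Gene signal is the mean coverage per bp from 5 kb before the start site to the end of the gene, divided by the mean autosomal coverage of the library, so that 1 is the genome-wide mean. The SOX9 libraries held 1824332 (M) and 7068156 (F) autosomal fragments without injury, against 2463775 (M) and 2317198 (F) at 1 dpi. Each was thinned to 1824332 fragments before genes were compared. A gene then held a median of 47.5 fragments per library, at which counting error alone is 14.5% of the signal, and it is 31.6% for a gene at the minimum of 10.

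Both uninjured libraries stood apart, in different measures. Uninjured F was the deepest, its fragments had a median of 215 bp against 237 to 246 bp in the others, and its mean signal over all autosomal genes tested was 1.84 against 1.57 to 1.70. Uninjured M had the lowest correlations of log2 signal across genes, which are not independent replicates: Pearson's r was 0.925 with uninjured F, 0.929 with 1 dpi M and 0.922 with 1 dpi F. Among the other libraries r was 0.943 between uninjured F and 1 dpi M, 0.941 between the 1 dpi libraries and 0.929 between uninjured F and 1 dpi F. Between the M libraries the median log2 change over all genes was 0.109, and between the F libraries it was -0.188. The direction was opposite in M and F for 10010 genes, of which 7224 were higher at 1 dpi in M and lower in F. Y coverage relative to the autosomes was 0.310 and 0.173 in the uninjured and 1 dpi M libraries and 0.0269 and 0.0392 in the F ones, whereas X coverage, 0.347 and 0.283 in M and 0.276 and 0.386 in F, did not separate the sexes.

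Both 1 dpi libraries lay above both uninjured ones in 2098 genes (12.6% of the genes tested) and below both in 2527 (15.2%). Those above included the transcription factor gene Cebpd, the NF-kappaB cofactor gene Bcl3, the zinc transporter gene Slc39a14 and the filament genes Vim and Gfap. Cebpd and Vim passed the fragment minimum only through the 1 dpi libraries. Of 45 synapse genes 14 lay below, more often than genes did in general, with a median log2 change of 0.015 in M and -0.247 in F. Of 12 liver and gut genes, taken as a control, 6 lay above. Few of these differences were large beside the spread between libraries: limma called 1 gene higher at 1 dpi (0.00603% of the genes tested) and 0 lower (0%) at an adjusted p under 0.05. At an unadjusted p under 0.05 there were 367 genes higher (2.21%) and 293 lower (1.77%). For a single gene, 2 libraries against 2 allow no exact two-sided permutation p under 1 in 3.

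The gene called higher was Ftl1-ps1, a processed copy of the ferritin light chain gene Ftl1 that the annotation lists as protein-coding. Its signal was 0.316 (M) and 0.355 (F) without injury against 1.55 (M) and 3.92 (F) at 1 dpi, from a mean of 12 fragments per library. It held 2 (M) and 4 (F) fragments before injury and 12 (M) and 30 (F) after, so it passed the minimum of 10 only through the 1 dpi libraries. The log2 change was 2.57 ± 0.34 (SE), with an adjusted p of 0.0425 in limma, higher in both 1 dpi libraries. Reads may map to either copy, and the parent gene Ftl1 had a signal of 7.80 (M) and 13.5 (F) before and 8.27 (F) to 11.8 (M) after injury, with groups that overlapped. A second random thinning gave Ftl1-ps1 an adjusted p of 0.17, no thinning gave 0.366, and leaving out lone fragments shared between libraries gave 0.942. Without the uninjured M or F library the log2 change of Ftl1-ps1 was 2.5 or 2.63, without 1 dpi F it was 1.92, and without 1 dpi M it was 3.21. Such a fit leaves 1 library in a group, so the other group alone gives the spread, and no calls are given.

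When the test was limited to the 7937 genes with a mean of at least 50 fragments, limma called 14 genes higher and 2 lower. The following genes are named because of these values. Rnf125, a ubiquitin ligase gene, had the lowest adjusted p in that fit, 1.36e-12, with a log2 change of 1.53. limma draws the spread of a gene toward that of genes with like signal, so no p here rests on a gene's own libraries alone. The signal of Rnf125 was 0.983 (M) and 0.458 (F) without injury, which differed, against 1.97 (M) and 2.33 (F) at 1 dpi. Its mean of 50.5 fragments came from 31 (M) and 17 (F) fragments without injury and 69 (M) and 85 (F) after, so it passed the minimum only through the group in which it was high. This was so for 6 of the 14 genes higher, namely Rnf125, Bcl3, Apod, Lsp1, Etv1 and Rala, and for both genes lower, and for these 8 being in that fit depended on the difference itself. Bcl3 (adjusted p 0.000296), Hif3a (0.000647) and Apod (0.0114) were among those higher, as was the cholesterol exporter gene Abca1, whose log2 change was 0.88 (adjusted p 0.00284). The muscle and junction gene Nrap (0.90, adjusted p 0.00236), Spidr (1.08, adjusted p 0.00457), the leukocyte gene Lsp1 (0.93, adjusted p 0.0114) and the transcription factor gene Etv1 (0.86, adjusted p 0.0179) were also higher. Lower were Bend7, with a log2 change of -0.99 and an adjusted p of 0.000647, and the phosphoglucomutase-like gene Pgm2l1, with -0.76 and 0.0234. In the fit of all 16588 genes the adjusted p was 0.266 for Rnf125, 0.385 for Bcl3, 0.442 for Hif3a and 0.537 for Apod.

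Both 1 dpi libraries lay above both uninjured ones for 2098 genes (12.6% of the genes tested), and both lay below for 2527 (15.2%). The groups overlapped for the other 11963. The minimum of 10 fragments applied to the mean of all 4 libraries, and 116 of the genes above (5.53%) held fewer than that on average in the uninjured libraries, and 75 of those below (2.97%) in the 1 dpi libraries. Among the genes above, the median log2 change was 0.35, and the median gap between the lowest 1 dpi and the highest uninjured library was 0.13. Among the genes below they were -0.36 and 0.12. Over all genes the median log2 change was -0.04, and 5% of genes lay below -0.51 and 5% above 0.48. With 1 library left out the condition is easier to meet: without uninjured F there were 7043 genes above and 4341 below, without uninjured M 4098 and 8770, without 1 dpi M 3893 and 5629, and without 1 dpi F 4209 and 4443. With no library left out, scaling by trimmed mean of log ratios gave 2596 above and 2595 below. Scaling by median ratio gave 2616 and 2583, so the balance of genes above and below depended on the scaling.

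Which genes met the condition depended on which fragments were kept. A second random thinning kept 1225 of the 2098 genes above (58.4%) and 1645 of the 2527 below (65.1%), and no thinning kept 1390 (66.3%) and 1845 (73.0%). Leaving out lone fragments with the same start and end in more than 1 library kept 1266 (60.3%) and 1626 (64.3%). In the first thinning and these 3 alternatives alike, a combination chosen after the values were seen, 882 genes were above (5.32% of the genes tested) and 1220 below (7.35%). The 4 sets rest on the same libraries, so being in each of them reflects sampling of fragments and not further animals. A gene described from here on as stable belongs to these 882 or 1220.

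Of the 12 genes above with the largest gap and a mean of at least 20 fragments, Cebpd led. For 5 of these 12, namely Cebpd, Txnip, Slc10a6, Tagln2 and Rgcc, the mean of the uninjured libraries was under 20 fragments, so they were named only through the 1 dpi libraries, and Cebpd also passed the minimum of 10 only in this way. Cebpd encodes C/EBP delta, a transcription factor of the acute-phase response, and its signal was 1.64 (M) and 1.70 (F) without injury against 5.99 (M) and 5.71 (F) at 1 dpi. Both libraries of each condition lay close together, and the log2 change was 1.75 ± 0.31 (SE), against 1.14 in the second thinning and 1.33 without thinning. These values come from 8 and 10 fragments before injury and 41 and 38 after. Each of the 4 controls held 0 fragments, but at 10664 to 51460 autosomal fragments they are too shallow for 0 to be informative. Among the 12 genes the control counts reached 5, in the 1 dpi M control for Hif3a and Slc39a14. The window of Cebpd lies inside that of Spidr, which was also above, so the signal is shared. Bcl3, which encodes an IkappaB-like cofactor of NF-kappaB, went from 1.47 (M) and 2.09 (F) to 4.59 (M) and 5.96 (F), a log2 change of 1.52 ± 0.33. Both genes belong to the list of IL-6 family and STAT3 genes.

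Apod and Plin4 had the next largest gaps after that of Cebpd. Apod encodes apolipoprotein D, a lipid carrier of glia, and its signal was 1.91 (M) and 3.26 (F) without injury against 7.35 (M) and 7.93 (F) at 1 dpi. Plin4, which encodes a coat protein of lipid droplets, had 6.20 (M) and 7.94 (F) before and 20.9 (M) and 17.1 (F) after injury, the highest signal among the 24 leading genes of both directions. In neither gene did the groups overlap, and the log2 changes were 1.57 ± 0.38 and 1.42 ± 0.48. Plin4 shares part of its window with Plin5 and Hdgfl2, whose groups overlapped.

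Genes of redox and oxygen handling also stood among the 12. Txnip encodes a thioredoxin-binding protein and had a signal of 1.70 (M) and 2.37 (F) without injury against 5.18 (M) and 5.05 (F) at 1 dpi. Hif3a, a subunit gene of the hypoxia-inducible factors, had 1.62 (M) and 2.24 (F) before and 6.88 (M) and 4.74 (F) after. The gap was wider than the distance between libraries of 1 condition on the log scale in both genes. Mgst2, a microsomal glutathione transferase gene, had 1.40 (M) and 1.27 (F) before and 3.95 (M) and 2.89 (F) after. The log2 changes of these 3 genes were 1.31, 1.54 and 1.28. In Hif3a the log2 change was 1.70 in the gene body and 0.74 from 5 kb before to 1 kb after the start site. Hif3a shares part of its window with Ppp5c, which was also above.

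Membrane transporters were also among the 12. Slc39a14, the gene of the zinc and iron transporter ZIP14, had a signal of 2.51 (M) and 2.93 (F) without injury against 5.51 (M) and 5.52 (F) at 1 dpi, from 164 fragments per library on average. Its log2 change was 1.00 ± 0.34 over the window, 0.04 around the start site and 1.16 in the gene body. Slc10a6, the gene of a carrier of sulfated steroids, had 0.683 (M) and 0.405 (F) before and 1.68 (M) and 1.52 (F) after injury, with a log2 change of 1.43 ± 0.27. Rnf125 had 0.983 (M) and 0.458 (F) before and 1.97 (M) and 2.33 (F) after. The others of the 12 were the actin-binding protein gene Tagln2, with a log2 change of 1.06 and a window shared in part with Igsf9, also above, and the cell cycle regulator gene Rgcc, with 1.08. Of the 12 genes, 12 were above in the second thinning and without thinning, and 11 without shared fragments, where the groups of Rgcc overlapped and its log2 change was 0.56.

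**Figure D1:**
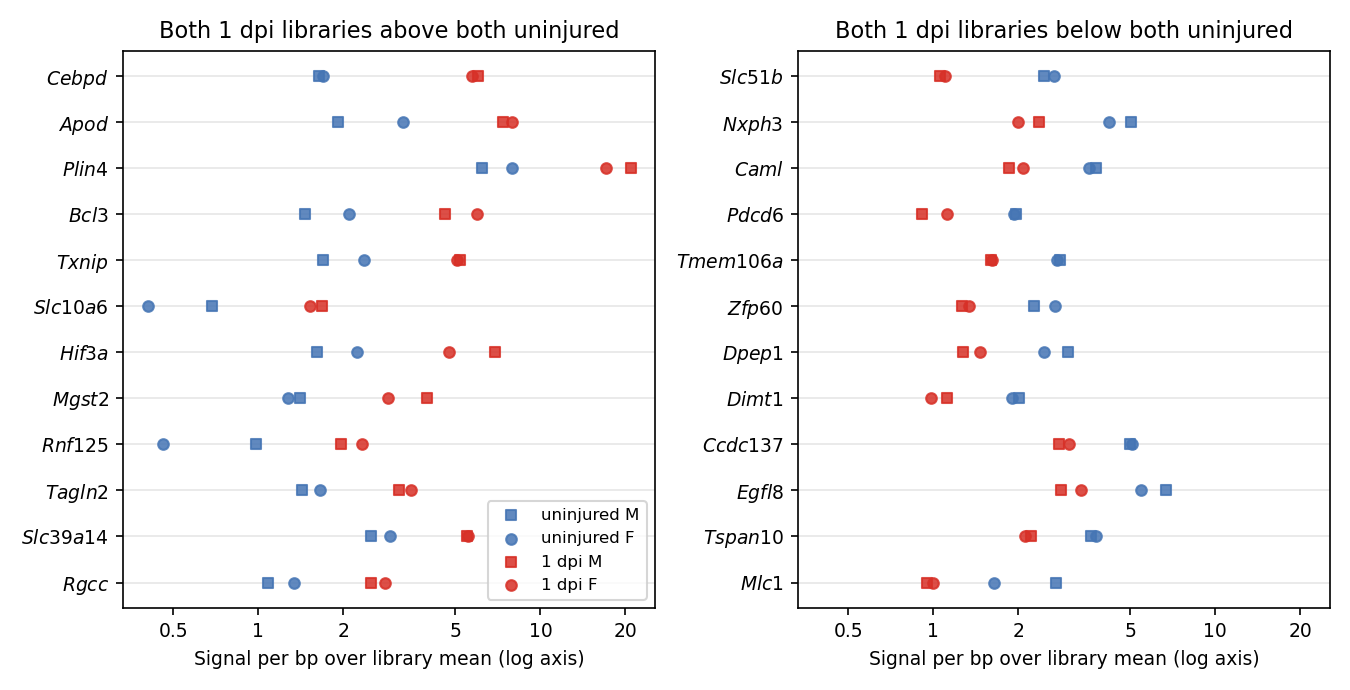
Signal of the 12 genes above (left) and the 12 below (right) with the largest gap between the groups, as a multiple of the library mean on a log axis, with squares for M and circles for F libraries, blue for uninjured and red for 1 dpi. In each gene the 2 red points lie on one side of the 2 blue ones, from Cebpd with a gap of 1.69 on the log2 scale to Mlc1 with 0.67.

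Of the 12 genes below, the largest gap was that of Slc51b, which encodes a subunit of the organic solute transporter of bile acids and steroids. It had a signal of 2.47 (M) and 2.69 (F) without injury against 1.06 (M) and 1.1 (F) at 1 dpi. Its log2 change was -1.18 ± 0.24, against -0.89 in the second thinning, -0.85 without thinning and -0.72 without shared fragments. Its window shares sequence with that of Rasl12, which was above, so the neighbours differ in direction. Nxph3, the gene of a secreted ligand of neurexins, had 5.01 (M) and 4.21 (F) before and 2.37 (M) and 2 (F) after injury, but its groups overlapped without shared fragments. Mlc1, which encodes a membrane protein of astrocyte endfeet, had 2.73 (M) and 1.64 (F) before and 0.951 (M) and 0.996 (F) after, and its groups overlapped in the second thinning and without thinning. The log2 change of Nxph3 was -1.04, against -0.48 without shared fragments, and that of Mlc1 was -1.05, against -0.48 in the second thinning.

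The other 9 genes below had log2 changes from -0.75 in the tetraspanin gene Tspan10 to -0.95 in Egfl8. Tspan10 had -0.16 in the second thinning, -0.34 without thinning and -0.40 without shared fragments, Pdcd6 had -0.56 without thinning, and Zfp60 had -0.57 without shared fragments against -0.88 in the first thinning. Caml had -0.86 in the first thinning and -1.46 in the second. Caml, which encodes a receptor for insertion of tail-anchored proteins at the endoplasmic reticulum, had a signal of 3.77 (M) and 3.57 (F) without injury against 1.86 (M) and 2.09 (F) at 1 dpi. Dimt1, a gene of ribosomal RNA methylation, had 2.01 (M) and 1.90 (F) before and 1.12 (M) and 0.983 (F) after. Neither gene had groups that overlapped, and both share their window with a neighbour whose groups did. Pdcd6, Tmem106a, Zfp60, Dpep1 and Ccdc137 complete the set. In 8 of the 12 genes below the mean of the 1 dpi libraries was under 20 fragments, so these were named only through the uninjured libraries. Each of the 12 held between 20 and 41.8 fragments per library on average, fewer than Plin4, Apod, Hif3a and Slc39a14 above.

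Within the windows of genes above or below with at least 20 fragments, the 300 bp with the largest gap between the groups were found. A large gap in them follows from that choice, so the values describe single places and do not show how a difference is spread over a gene. In Hif3a such a stretch lay 3677 bp after the start site at chr7:17058601-17058900, over an exon of the gene 4833404L02Rik, with a signal of 3.86 (M) and 6.16 (F) without injury against 71.9 (M) and 54.5 (F) at 1 dpi. In Slc39a14 it lay outside exons 14875 bp after the start site, with 5.97 (M) and 18.2 (F) before and 65.2 (M) and 80.5 (F) after. In Fos it covered the start of the gene, with 2.7 (M) and 3.09 (F) before and 33.2 (M) and 34.2 (F) after injury. Gfap had its stretch 3562 bp into the gene, where the 1 dpi libraries differed, with 1.63 (M) and 2.75 (F) before and 34.9 (M) and 9.74 (F) after.

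**Figure D2:**
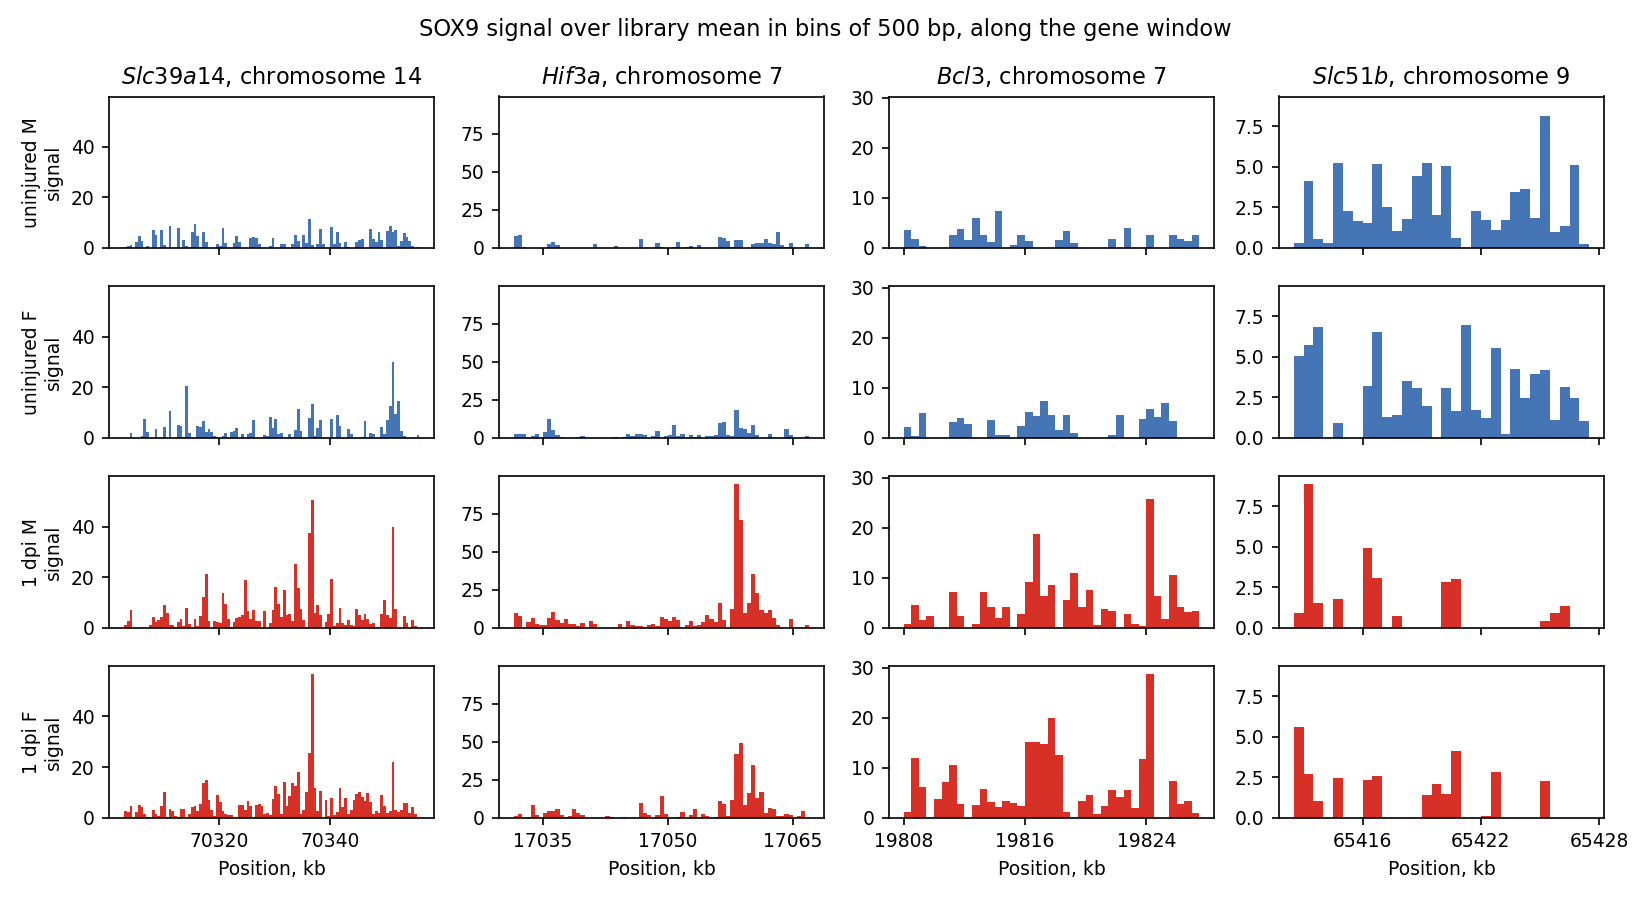
Signal over library mean in bins of 500 bp along the windows of Slc39a14, Hif3a, Bcl3 and Slc51b (columns), with position in kb on the x axis and 1 row per library, blue for uninjured and red for 1 dpi, on 1 scale per gene. In the first 3 genes narrow peaks stand out in both 1 dpi libraries, and in Slc51b the signal is lower in both 1 dpi libraries over the window, at 1.06 (M) and 1.1 (F) against 2.47 (M) and 2.69 (F).

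Over all 1665 genes above that were searched, 19.3% of these stretches lay within 1 kb of the start site, 8.29% further upstream and 72.4% in the gene body, with a median distance of 11483 bp. Over the 2170 genes below the shares were 23.1%, 12.5% and 64.4%, with a median distance of 5587 bp. The genes above were longer, with a median window of 39.9 kb over all 2098 against 28.5 kb over all 2527 below. Distances were not compared between genes of equal length.

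The stretches of 4 genes above and 1 below are shown as examples. They had large gaps, lay outside exons and hold at least 1 of 4 short motifs that were searched on both strands, and not every stretch of this kind is shown. These are TGANTCA for AP-1 proteins, ACAANGG for SOX proteins, ACANNNTGT, a spaced palindrome, for steroid receptors, and TTCNNNGAA for STAT proteins. N is any base, so the letters also take in sequences outside the narrower bound sites. For AP-1 the study gives the consensus TGA(G/C)TCA. All are printed on the plus strand of GRCm38 with every match to the 4 motifs in capitals: Apod at chr16:31316401-31316700, at -1742 bp from the start site, Bcl3 at chr7:19824101-19824400, at -1480 bp from it, Plin4 at chr17:56108701-56109000 and Slc39a14 at chr14:70336401-70336700 within the genes but outside exons, and Caml at chr13:55623601-55623900, also within the gene and outside exons.
Apod: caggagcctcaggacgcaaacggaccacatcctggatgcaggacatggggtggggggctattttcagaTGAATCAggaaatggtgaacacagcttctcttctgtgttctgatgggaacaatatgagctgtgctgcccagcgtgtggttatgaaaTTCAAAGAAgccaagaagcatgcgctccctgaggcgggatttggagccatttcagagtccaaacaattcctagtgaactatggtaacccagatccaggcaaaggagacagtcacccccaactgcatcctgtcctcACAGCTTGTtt
Bcl3: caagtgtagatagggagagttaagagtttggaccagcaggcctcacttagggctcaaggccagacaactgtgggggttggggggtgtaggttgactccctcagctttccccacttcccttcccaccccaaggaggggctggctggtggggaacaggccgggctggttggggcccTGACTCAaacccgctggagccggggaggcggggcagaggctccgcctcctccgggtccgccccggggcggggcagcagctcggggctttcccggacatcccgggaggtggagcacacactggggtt
Plin4: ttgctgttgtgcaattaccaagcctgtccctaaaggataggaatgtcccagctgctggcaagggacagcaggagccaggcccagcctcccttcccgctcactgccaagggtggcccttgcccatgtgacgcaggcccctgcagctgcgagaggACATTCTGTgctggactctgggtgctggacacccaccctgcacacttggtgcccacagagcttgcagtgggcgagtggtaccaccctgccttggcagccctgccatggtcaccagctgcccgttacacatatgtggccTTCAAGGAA
Slc39a14: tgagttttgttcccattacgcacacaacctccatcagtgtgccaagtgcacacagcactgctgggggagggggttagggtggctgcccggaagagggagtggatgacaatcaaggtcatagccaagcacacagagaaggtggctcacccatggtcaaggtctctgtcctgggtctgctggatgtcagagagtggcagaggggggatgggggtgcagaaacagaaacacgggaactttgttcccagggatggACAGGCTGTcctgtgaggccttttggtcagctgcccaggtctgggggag
Caml: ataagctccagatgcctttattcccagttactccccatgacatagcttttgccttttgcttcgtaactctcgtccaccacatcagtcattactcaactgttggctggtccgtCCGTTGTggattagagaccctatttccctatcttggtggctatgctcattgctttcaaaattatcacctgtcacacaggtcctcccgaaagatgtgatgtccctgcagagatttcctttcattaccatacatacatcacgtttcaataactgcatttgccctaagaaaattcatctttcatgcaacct
The Apod stretch had a signal of 4.35 (M) and 7.97 (F) without injury against 46.8 (M) and 56.4 (F) at 1 dpi. It holds a STAT match, a steroid receptor match and a match to the AP-1 letters, TGAATCA, which lies outside the AP-1 consensus. The Bcl3 stretch had 4.37 (M) and 8.46 (F) before and 30.2 (M) and 34.8 (F) after, with an AP-1 match. The Plin4 stretch had 10.6 (M) and 13.2 (F) before and 104 (M) and 55.7 (F) after, with a steroid receptor and a STAT match, and the Slc39a14 stretch holds a steroid receptor match. The Caml stretch had 9.10 (M) and 10.9 (F) before and 0.790 (M) and 0.136 (F) after, with a match to the SOX letters that reads ACAACGG on the minus strand. A match is a description of the letters and shows no binding.

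The AP-1 letters, with any base at N, were in 9.79% of the 1665 stretches of largest gap in genes above and 6.18% of the 2170 in genes below. They were in 5.57% of the stretches of highest signal in all 14025 genes searched and in 7.81% of 32851 RefSeq promoters of 300 bp (250 bp before to 50 bp after the start, GRCm38.p6). The SOX letters were in 14.3% and 13.2% of the stretches of largest gap in genes above and below, in 12.2% of the stretches of highest signal and in 13.6% of promoters. For the steroid receptor letters the 4 shares were 9.07%, 7.83%, 5.15% and 6.85%, and for the STAT letters 9.67%, 7.05%, 5.16% and 8.30%. Where the stretches of highest signal were split by class, the SOX letters were in 14.8% of those of genes above and 9.08% of those of genes below, and the AP-1 letters in 8.23% and 4.79%. The steroid receptor letters were in 7.09% and 4.42% of them and the STAT letters in 5.77% and 4.7%, at a mean GC of 59.1% and 61%. Mean GC was 50.5% and 52.2% in the stretches of largest gap of genes above and below, 60.7% in those of highest signal and 53.8% in promoters, and the part of base composition in these shares was not tested.

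Gene lists of 40 functions and cell types were then described by how many members lay above or below, beside 12.6% and 15.2% of all genes tested. The lists were chosen with earlier results of these data known, so a share unlike that of all genes is no independent evidence. In the fit of all 16588 genes no gene on a list passed limma's threshold, so the counts describe groups that did not overlap. Members named below in addition to those of largest gap in each list were chosen after their values were seen. Of the 40 lists, 19 had a larger share above and a smaller share below than all genes, and 9 had the reverse. In 26 lists the median change had opposite signs in M and F.

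Reactive astrocyte genes, those that astrocytes raise after damage, were above in 11 of 25 members tested (44%) and below in 4 (16%), with a median log2 change of 0.31 (0.44 in M and 0.32 in F). Vim, the vimentin gene, had a signal of 0.760 (M) and 0.638 (F) without injury against 2.06 (M) and 1.84 (F) at 1 dpi, a log2 change of 1.36 ± 0.24 that was 0.81 in the second thinning and 0.88 without thinning. Serpina3n, which encodes a secreted protease inhibitor, had 2.82 (M) and 1.15 (F) before and 4.67 (M) and 6.52 (F) after. The groups were apart in each. Vim held 11 (M) and 7 (F) fragments before and 22 (M) and 17 (F) after, so it passed the minimum only through the 1 dpi libraries. Nes, the nestin gene, had a log2 change of 0.82, the sphingosine receptor gene S1pr3 0.57, and the filament gene Synm 0.38. Stable members numbered 9 above, namely Gfap, Vim, Nes, Serpina3n, S1pr3, Tgm1, Slc10a6, Slc39a14 and Synm, and 0 below. The 4 below were Osmr, Cp, Fbln5 and Ccl2, and each had a gap of 0.02 on the log2 scale. In the second thinning and without thinning 12 members were above and 0 below, and without shared fragments 11 were above and 3 below. Fewer cells of a type and less signal per cell cannot be told apart in any of these comparisons.

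Gfap itself, an astrocyte marker, had a signal of 3.28 (M) and 2.42 (F) without injury against 4.83 (M) and 3.81 (F) at 1 dpi. Its groups did not overlap, but the gap of 0.21 was smaller than the distance between libraries of 1 condition, and the log2 change was 0.59 ± 0.34.

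Lists of inflammatory signalling differed from each other. Of 20 NF-kappaB and TNF genes 6 were above (30%) and 0 below, with a median log2 change of 0.26 that was -0.05 in the 12 members tested around the start site alone. Nfkbia, the gene of the inhibitor IkappaB alpha, had a signal of 3.59 (M) and 6.54 (F) without injury against 8.88 (M) and 10.4 (F) at 1 dpi. The log2 changes were 0.97 in Nfkbia and 0.99 in Tnfaip3, which encodes the ubiquitin editor A20, and in both the groups were apart. Tnfaip3 held 8 (M) and 8 (F) fragments before and 18 (M) and 19 (F) after, and passed the minimum only through the 1 dpi libraries. With Tnf, Tnfrsf1a and Il1r1, 5 of the 6 were stable, but Tnf, with a mean of 9.5 fragments before and 14.5 after, also passed only in this way. Of 22 IL-6 family and STAT3 genes 7 were above and 2 below, with a median of 0.15 that was 0.28 in M and -0.05 in F, and Cebpd, Bcl3, Socs3, Cebpb and Jak2 were the stable members above. Socs3, which encodes a feedback inhibitor of cytokine receptors, had 3.24 (M) and 4.91 (F) before and 7.66 (M) and 7.15 (F) after. Interferon response genes were above in 5 of 19 and below in 0, with a median of 0.25, but without shared fragments 5 were above and 4 below. In the second thinning they were 5 above and 0 below, and without thinning 5 and 1. Under scaling by trimmed mean of log ratios 8 were above and 0 below. The stable ones were Ddx58 (1.00), the gene of the RNA sensor RIG-I, Oasl1 (0.47) and Oasl2 (0.69). Of 9 chemokine ligand genes 0 were above and 1 below, with a median of -0.04, and 21 of the 30 listed were not tested or not measured.

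Cytoskeleton and motility genes were above in 12 of 33 and below in 2, with a median log2 change of 0.13, and 8 were stable above, among them Vim, Nes, Msn (0.79), S100a10 (1.14) and Rhoj (0.60). S100a10 held a mean of 5.5 fragments before and 15.5 after, and like Vim passed the minimum only through the 1 dpi libraries. Oxidative stress and metal handling genes were above in 7 of 27 and below in 1, with a median of 0.13. The metallothionein gene Mt1 had a signal of 6.12 (M) and 6.25 (F) without injury against 12 (M) and 9.3 (F) at 1 dpi, and the ferritin heavy chain gene Fth1 had 7.13 (M) and 10.4 (F) before and 14.5 (M) and 16.9 (F) after. In both genes the groups were apart, and the log2 changes were 0.77 and 0.85. In the second thinning that of Mt1 was 0.50. Among 20 genes of nuclear factor I and other glial regulators 7 were above and 2 below, with a median of 0.09. Hes1 (0.49), Nfia (0.33), Rfx3, Zbtb20, Nfib and Rfx4 were stable above, and Hes5 (-0.87) was stable below. Of 11 genes that host or lie near injury-responsive enhancers 4 were above and 0 below, namely Slc39a14, Gfap, Synm and Ttc23, with a median of 0.14.

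A list of liver and gut genes, taken as a control, was also above more often than genes in general: 6 of 12 members tested were above and 1 below, with a median log2 change of 0.15. Apob had a signal of 0.445 (M) and 0.420 (F) without injury against 0.841 (M) and 0.788 (F) at 1 dpi, and Ttr had 0.391 (M) and 0.881 (F) before and 2.39 (M) and 1.13 (F) after, from 5 and 10 fragments before and 25 and 13 after. Ttr thus passed the minimum only through the 1 dpi libraries. Stable above were 3 of the 6, namely Apob, Ttr and Cela1, and the log2 change of Apob was 0.78 in the first thinning and 0.43 in the second. The share above was 50% here and 44% among reactive astrocyte genes. In the other fragment sets the order was the reverse: the control list had 5 of 12 above in the second thinning, 4 without thinning and 4 without shared fragments, where reactive astrocyte genes had 12, 12 and 11 of 25.

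**Figure D3:**
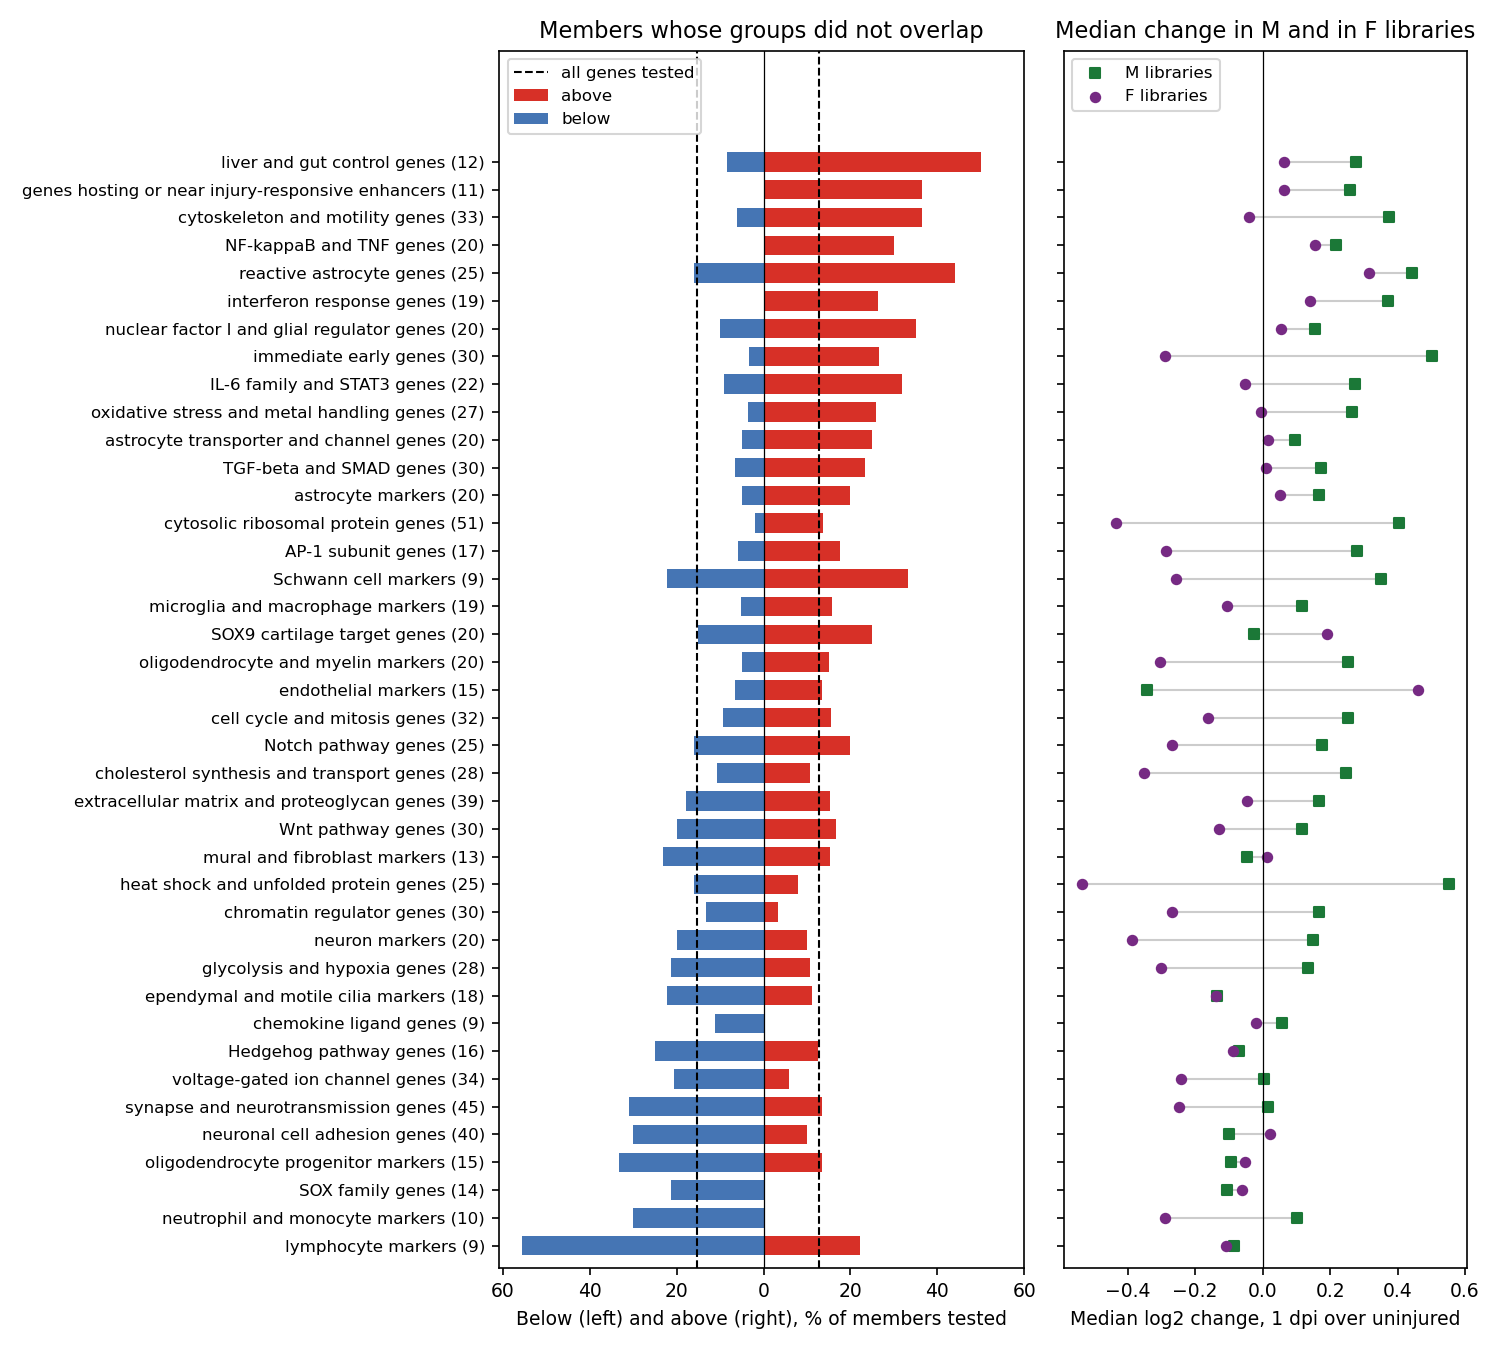
Percent of the tested members of each of the 40 gene lists with both 1 dpi libraries above (red) or below (blue) both uninjured ones, beside dashed lines at the 12.6% and 15.2% of all genes tested (left, members tested in brackets), and the median log2 change of each list in the M (squares) and F (circles) libraries (right). Reactive astrocyte genes reach 44% above, the liver and gut control list reaches 50%, and synapse and neurotransmission genes reach 31.1% below.

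Synapse genes lay below more often than genes in general, and the order among neuronal lists changed with the fragments kept. Of 45 synapse and neurotransmission genes 14 were below (31.1%) and 6 above, and 10 were stable below against 2 above. The median log2 change was -0.16, with 0.015 in M and -0.247 in F. Signal summed over the list was 89.4 (M) and 129.7 (F) without injury against 96.0 (M) and 88.7 (F) at 1 dpi. In the second thinning, without thinning and without shared fragments 14, 13 and 14 were below. Grin1, which encodes the shared subunit of NMDA receptors, had a signal of 5.81 (M) and 6.32 (F) without injury against 4.69 (M) and 4.53 (F) at 1 dpi. Snap25, a gene of the vesicle fusion machinery, had 1.42 (M) and 1.49 (F) before and 1.16 (M) and 1.13 (F) after. The groups were apart in both, with log2 changes of -0.39 and -0.32, and Grm5, Syn2, Rims1 and Syt1 were also stable below. Of 40 neuronal cell adhesion genes 12 were below and 4 above, with a median of -0.06, and in the 3 other sets 13, 9 and 10 were below. Under scaling by trimmed mean of log ratios 6 were below and 2 above, near the 15.6% of all genes below in that setting, whereas synapse genes had 15 of 45 below there. In the first scaling Csmd1 (-0.24), Ptprt, Lsamp and Opcml were among the 8 stable ones below. Voltage-gated ion channel genes were below in 7 of 34 and above in 2, with a median of -0.10 (0.005 in M and -0.24 in F). Neuron markers were below in 4 of 20 and above in 2, with a median of -0.16 (0.15 in M and -0.39 in F). In the 3 other sets ion channel genes were below in 8, 6 and 8, and neuron markers were below in 5, 6 and 7 and above in 4, 3 and 3. Under scaling by trimmed mean of log ratios 9 ion channel genes and 6 neuron markers were below and 2 of each above. Chat, the gene of acetylcholine synthesis in motor neurons, was above with 0.44.

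Other developmental and matrix lists were mixed. Notch pathway genes were above in 5 of 25 and below in 4, with a median log2 change of -0.05. Hes1 had a signal of 2.53 (M) and 3.57 (F) without injury against 4.53 (M) and 4.02 (F) at 1 dpi, and Hes5 had 4.90 (M) and 6.84 (F) before and 3.11 (M) and 3.14 (F) after, so these 2 effectors of Notch lay on opposite sides. The log2 change of Hes5 was -0.87 in the first thinning and -0.34 in the second. Hedgehog pathway genes were above in 2 of 16 and below in 4, with a median of -0.08. The ligand genes Shh (-0.379), Ihh and Dhh (-0.398) and the coreceptor gene Cdon were stable below, and Gli2 (0.625) was stable above. Wnt pathway genes were above in 5 of 30 and below in 6, with a median of 0.01. TGF-beta and SMAD genes were above in 7 of 30 and below in 2 (median 0.09), extracellular matrix and proteoglycan genes in 6 and 7 of 39 (0.09), and SOX9 target genes of cartilage in 5 and 3 of 20 (0.07). SOX family genes were above in 0 of 14 and below in 3, namely Sox1, Sox10 and Sox12, with a median of -0.05.

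In several lists the M and F libraries gave opposite medians. Immediate early genes were above in 8 of 30 and below in 1, with a median log2 change of 0.18 that was 0.50 in M and -0.29 in F. AP-1 subunit genes were above in 3 of 17 and below in 1 (median 0.02). Under scaling by trimmed mean of log ratios 7 AP-1 subunit genes were above and 3 below. Of the immediate early genes 12 were then above and 1 below, beside 15.6% of all genes above and 15.6% below. Cytosolic ribosomal protein genes were above in 7 of 51 and below in 1, with a median of 0.00, 0.40 in M and -0.44 in F. Heat shock and unfolded protein genes were above in 2 of 25 and below in 4, with medians of 0.55 in M and -0.54 in F, and the median over both of -0.01 became 0.03 under scaling by trimmed mean of log ratios. Cholesterol genes were above in 3 of 28 and below in 3, and their median of -0.02 became 0.02 under that scaling. Glycolysis and hypoxia genes were above in 3 of 28 and below in 6 (median -0.09), cell cycle and mitosis genes in 5 and 3 of 32 (0.06), and chromatin regulator genes in 1 and 4 of 30 (-0.08). In the second thinning, without thinning and without shared fragments 4, 3 and 3 glycolysis and hypoxia genes were below, and 1 was stable below.

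Among markers of cell types, astrocyte markers were above in 4 of 20 (Gfap, Acsbg1, Aldh1l1 and Aqp4, each stable) and below in 1, with a median log2 change of 0.15. Astrocyte transporter and channel genes were above in 5 of 20 and below in 1 (median 0.08). Oligodendrocyte and myelin markers were above in 3 of 20 and below in 1 (0.02), and oligodendrocyte progenitor markers in 2 and 5 of 15 (-0.04). Sox10, a regulator gene of oligodendrocytes, had a signal of 13.2 (M) and 14.8 (F) without injury against 11.9 (M) and 9.02 (F) at 1 dpi, with groups apart. Ependymal and motile cilia markers were above in 2 of 18 and below in 4 (-0.04). Microglia and macrophage markers were above in 3 of 19 and below in 1 (0.02), neutrophil and monocyte markers in 0 and 3 of 10 (-0.10), and lymphocyte markers in 2 and 5 of 9 (-0.07). In the second thinning 5 microglia and macrophage markers were above and 3 below, and without thinning 5 and 2. Under scaling by trimmed mean of log ratios 6 of them were above and 1 below. Endothelial markers were above in 2 of 15 and below in 1 (0.08), mural and fibroblast markers in 2 and 3 of 13 (-0.05), and Schwann cell markers in 3 and 2 of 9 (0.19).

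In some lists the balance of members above and below turned with the fragments kept. In the second thinning 4 cell cycle and mitosis genes were above and 8 below, 6 Wnt pathway genes above and 4 below, 8 extracellular matrix genes above and 6 below, and 4 oligodendrocyte progenitor markers above and 3 below. Of the 10 neutrophil and monocyte markers 2 were then above and 0 below, and of the chemokine ligand genes 1 was above and 0 below. Ependymal markers were then 4 above and 4 below, AP-1 subunit genes 2 and 2, and mural and fibroblast markers 2 and 2, and without thinning Schwann cell markers were 1 above and 1 below. Without shared fragments 1 oligodendrocyte marker was above and 3 were below, 1 endothelial marker was above and 2 were below, and 4 astrocyte transporter and channel genes were above and 4 below. Of the 9 lymphocyte markers 2 were below in the second thinning. Among list members not named so far, Ccn1 (immediate early), Kcna4 (ion channel) and Rps4x (ribosomal) passed the minimum only through the 1 dpi libraries, in which they were high, and Mia (ependymal) and Cd3e (lymphocyte) only through the uninjured ones.

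Whether a list's median lay above or below 0 rested in many lists on 1 library. Without uninjured M the median was -0.11 for immediate early genes, -0.01 for IL-6 family and STAT3 genes, -0.004 for cytoskeleton and motility genes, -0.14 for AP-1 subunit genes, -0.22 for cell cycle genes, -0.36 for ribosomal protein genes, -0.20 for oligodendrocyte markers and -0.20 for Schwann cell markers. It was then 0.08 for oligodendrocyte progenitor markers, 0.12 for mural and fibroblast markers, 0.02 for chemokine ligand genes and 0.04 for Hedgehog pathway genes. Without uninjured F it was 0.04 for neuron markers, 0.09 for Notch pathway genes, 0.17 for cholesterol genes, 0.05 for glycolysis and hypoxia genes, 0.30 for heat shock genes, 0.11 for chromatin regulator genes, -0.17 for endothelial markers and -0.01 for cartilage target genes. Without 1 dpi M it was -0.004 for astrocyte markers, -0.14 for oligodendrocyte markers, -0.03 for AP-1 subunit genes, -0.08 for Wnt pathway genes, -0.02 for extracellular matrix genes, -0.06 for cartilage target genes and -0.06 for ribosomal protein genes. Without 1 dpi F it was 0.01 for mural and fibroblast markers, 0.04 for chemokine ligand genes, 0.06 for Notch pathway genes, 0.01 for Hedgehog pathway genes, 0.03 for cholesterol genes and 0.18 for heat shock genes. The medians of the other lists, among them reactive astrocyte, NF-kappaB, interferon, synapse, ion channel and neuronal adhesion genes, kept their direction with any 1 library left out.

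Genes followed throughout included Sox9 itself, whose groups overlapped: its signal was 1.5 (M) and 1.91 (F) without injury against 2.83 (M) and 1.68 (F) at 1 dpi. Cd44, the gene of a hyaluronan receptor, had 0.773 (M) and 1.07 (F) before and 0.946 (M) and 1.41 (F) after, also with overlap. The AP-1 subunit gene Junb had 8.18 (M) and 16.9 (F) before and 14 (M) and 13.8 (F) after, and the actin gene Actb had 11.8 (M) and 17.9 (F) before and 16.4 (M) and 14.2 (F) after. Junb, Actb and Sox9 lay higher at 1 dpi in M and lower in F. Without uninjured M the log2 change was -0.28 in Junb and -0.23 in Actb, and without 1 dpi M it was -0.03 in Actb and -0.01 in Sox9. The AP-1 subunit gene Fos had 5.38 (M) and 5.86 (F) before and 7.71 (M) and 11 (F) after and was above, but its groups overlapped in the second thinning, where the log2 change was 0.28 against 0.71 in the first.

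Genes above and below differed in their build and level. Windows of genes above had a median length of 39.9 kb and GC content of 44.6%, against 28.5 kb and 46.8% for genes below and 30.6 kb and 46% for all. With genes split into 5 bins of equal size, the share above was 8.14% in the bin of shortest windows and 18.4% in that of the longest, and the share below was 16.5% and 12.9%. From the bin of lowest GC to that of highest, the share above was 15.1%, 15.9%, 14.8%, 10.5% and 6.99%, and the share below 12.9%, 13.4%, 15.2%, 16.9% and 17.9%. From lowest to highest signal they were 16.6%, 18.3%, 13.5%, 9.62% and 5.21% above and 10.9%, 17%, 17.3%, 17.8% and 13.2% below. On chromosome 3, 19.7% of genes were above and 10.2% below, and on chromosome 11 the shares were 8.8% and 20%. The window of another protein-coding gene, tested or not, overlapped 40.7% of the genes above and 56.5% of those below. Of the genes above and below with at least 10 fragments from 5 kb before to 1 kb after the start site, 36.1% and 41.5% met the same condition there, and of those with enough fragments in the gene body 74.9% and 69.7% did so in it.

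**Figure D4:**
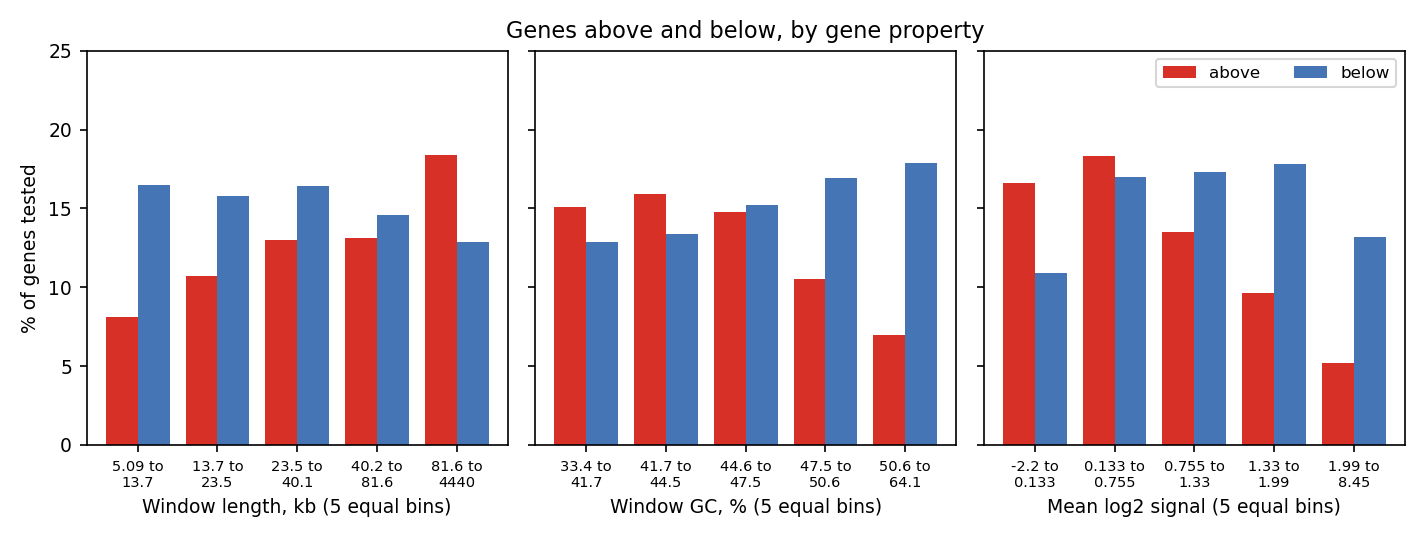
Percent of genes above (red) and below (blue) in 5 bins of equal size by window length, GC content and mean log2 signal, each from the lowest to the highest. The share above goes from 8.14% to 18.4% with length, from 15.1% to 6.99% with GC and from 16.6% to 5.21% with signal.

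The secondary-only controls held 22300 (M) and 45472 (F) autosomal fragments without injury, against 51460 (M) and 10664 (F) at 1 dpi, too few to compare single genes. They are not independent of the SOX9 signal: of the controls' lone fragments, 27.3% (M) and 22.4% (F) before and 18.2% (M) and 14.3% (F) after injury had the same start and end as one in the SOX9 library of the same nuclei. Sharing with SOX9 libraries of other nuclei was from 9.97% to 17.9%, and the 1 dpi F control shared more with uninjured M (15.1%), uninjured F (16.3%) and 1 dpi M (17.9%) than with its own. The cause was not tested. Summed over the autosomal genes above, control signal relative to all genes was 0.896 (M) and 0.942 (F) without injury against 1.02 (M) and 0.938 (F) at 1 dpi. SOX9 signal over the same genes was 0.878 (M) and 0.770 (F) before and 1.03 (M) and 1.07 (F) after. Over the genes below, controls had 0.967 (M) and 0.946 (F) before and 0.910 (M) and 0.9 (F) after, and SOX9 had 1.07 (M) and 1.02 (F) before and 0.846 (M) and 0.869 (F) after. The genes were chosen by their SOX9 values, so the separation of those values follows from the choice and sets no scale for the controls. The control groups overlapped for genes above and were apart for genes below.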

How the data were processed

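CUT&Tag libraries of SOX9 and of secondary-only controls from mouse spinal cord were read as the deposited coverage signal per interval on mm10, made by the authors, per their processing notes, with Bowtie2 2.5.4 and Picard 3.4.0. Fragments were rebuilt from that signal, thinned at random to 1824332 autosomal fragments per SOX9 library, and summed from 5 kb before the start site to the end of each protein-coding gene of GENCODE M21. Sums were divided by length and by the mean autosomal coverage. Genes with a mean of at least 10 fragments were compared on log2 signal, after a pseudocount of 0.1 was added, by limma 3.58.1 (R 4.3.3), whose p was adjusted by Benjamini-Hochberg over all genes with a threshold of 0.05. Genes whose 1 dpi libraries both lay above or below both uninjured ones were counted, and the gap is the distance between the groups. Named were the 12 genes per direction with the largest gap, at least 20 fragments, no Gm or Rik symbol and no window overlapping one already taken, up to 2 genes per list and direction, genes past the threshold, and Sox9, Cd44, Slc39a14, Gfap, Fos, Junb, Vim and Actb. Members and lists were chosen with earlier results of these data known. Other settings changed thinning, scaling, pseudocount, minimum, window and libraries. Python 3.11.15, numpy 2.4.6, pandas 2.3.3 and matplotlib 3.10.9 were used. Counting error covers fragments only, and no library was left out of the comparison.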

Additional observations from a re-analysis of the deposited data

Results flagged for a closer look

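The direction of the change at 1 dpi was opposite in the F and M libraries for the results given here, and each sex had 1 library per condition. Sex, animal and library cannot be told apart, and the difference between M and F was not tested. Over all genes tested the median log2 change was -0.188 in F and 0.109 in M. Marker lists had median log2 changes of -0.389 (F) and 0.15 (M) in neuron markers, -0.305 (F) and 0.253 (M) in oligodendrocyte and myelin markers and -0.105 (F) and 0.116 (M) in microglia and macrophage markers. Further medians were -0.29 (F) and 0.102 (M) in neutrophil and monocyte markers, 0.46 (F) and -0.344 (M) in endothelial markers and 0.012 (F) and -0.0458 (M) in mural and fibroblast markers. Further medians were -0.258 (F) and 0.352 (M) in Schwann cell markers. Signalling lists had -0.285 (F) and 0.278 (M) in AP-1 subunit genes, -0.29 (F) and 0.501 (M) in immediate early genes and -0.0532 (F) and 0.275 (M) in IL-6 family and STAT3 genes. Further medians were -0.0197 (F) and 0.0563 (M) in chemokine ligand genes. Developmental and matrix lists had -0.27 (F) and 0.177 (M) in Notch pathway genes, -0.131 (F) and 0.116 (M) in Wnt pathway genes and -0.0461 (F) and 0.168 (M) in extracellular matrix and proteoglycan genes. Further medians were 0.191 (F) and -0.0261 (M) in SOX9 cartilage target genes. Neuronal and lipid lists had -0.247 (F) and 0.015 (M) in synapse and neurotransmission genes, -0.242 (F) and 0.00473 (M) in voltage-gated ion channel genes and 0.0229 (F) and -0.0989 (M) in neuronal cell adhesion genes. Further medians were -0.352 (F) and 0.248 (M) in cholesterol synthesis and transport genes. Metabolic, stress and cell cycle lists had -0.303 (F) and 0.134 (M) in glycolysis and hypoxia genes, -0.535 (F) and 0.552 (M) in heat shock and unfolded protein genes and -0.00452 (F) and 0.265 (M) in oxidative stress and metal handling genes. Further medians were -0.163 (F) and 0.252 (M) in cell cycle and mitosis genes. The other lists had -0.0404 (F) and 0.376 (M) in cytoskeleton and motility genes, -0.436 (F) and 0.405 (M) in cytosolic ribosomal protein genes and -0.268 (F) and 0.166 (M) in chromatin regulator genes. Among single genes, the log2 changes were -0.174 (F) and 0.875 (M) in Sox9, -0.285 (F) and 0.769 (M) in Junb and -0.329 (F) and 0.473 (M) in Actb.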

How the results depend on the processing

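Of 1729 comparisons with another setting, 107 concerned overall counts and medians (69 same, 38 moved), 359 gene lists (302 same, 57 moved) and 1263 named genes (1230 same, 10 stronger, 6 weaker, 17 reversed). Same does not mean equal: the median over all genes counted as same at 0.0702 without uninjured F, against -0.0412 in the setting used. The number of genes above, 2098, counted as same at 2596 under scaling by trimmed mean. The cause of the differences between settings was not tested.

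limma called 1 gene higher and 0 lower in the setting used. The number higher became 0 with all 8 libraries in 1 fit of 4 groups, where 57 genes had an unadjusted p under 0.05, without thinning (324), with a second thinning (342), with scaling by trimmed mean (431) or median ratio (440), and with a pseudocount of 0.5 (368). It also became 0 with a minimum of 1 fragment (470), without the 5 kb before the start site (327), around the start site only (60), in the gene body (324), with windows that overlap no other (216), without the highest 1-kb tiles (371), without shared lone fragments (335) and with voom (214). With at least 50 fragments 14 genes were higher and 2 lower. With 1 library left out, a group holds 1 library and the other group alone gives the spread, so no calls are given.

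With sex as a block in limma, 22 genes were called higher and 6 lower. The libraries of a sex come from different animals and their deviations from the group means had a correlation of -0.207 across genes, so this pairing was not used.

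The number of genes above, 2098, was 936 with at least 50 fragments, 815 around the start site only and 1245 with windows that overlap no other. The number below, 2527, was 1155, 1439 and 1100. With 1 library left out there were 3893 to 7043 above and 4341 to 8770 below, which rises by construction. The fit of all 8 libraries leaves these counts and the median the same by construction. The median log2 change over all genes lay between -0.168 and 0.0702 with 1 library left out.

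Among the 1263 comparisons of named genes, which cover a block for sex, no thinning, trimmed mean scaling, the window without the 5 kb, the start site only and each library left out, direction reversed in 17. Without thinning the log2 change was 0.0225 in Il1r2, 0.16 in Ccl2 and 0.0645 in Cdx1. Without the 5 kb before the start site it was 0.00926 in Ncmap and 0.329 in Cnmd. Around the start site only it was -0.1 in Eng, -0.2 in Smad1, -0.133 in Hes1 and -0.252 in Nkd1. There it was also -0.00999 in Nfia, -0.0303 in Magi2, -0.409 in Cdkn1a and -0.517 in Chd7. With 1 library left out, Junb went as low as -0.276 and as high as 0.76, Actb from -0.226 (without uninjured M; -0.0312 without 1 dpi M) to 0.369, and Sox9 from -0.00983 to 0.71. Outside these 17, direction also differed in the second thinning, with -0.067 in Fbln1, 0.216 in Fbln5, -0.0254 in Homer1, 0.225 in Cdc42ep3 and -0.0318 in Actb. Without shared fragments it differed with 0.0766 in Egfl7, 0.00823 in Dusp5 and 0.0394 in Cdx1.

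Around the start site only, fewer members of the lists held enough fragments and several medians had the other sign. The median log2 change there was -0.0458 for NF-kappaB and TNF genes (12 members), -0.0714 for nuclear factor I and glial regulator genes (12), -0.0181 for genes hosting or near injury-responsive enhancers (6) and -0.203 for the liver and gut control genes (3). It was also -0.31 for Wnt pathway genes, -0.253 for microglia and macrophage markers, -0.169 for endothelial markers and -0.104 for oligodendrocyte and myelin markers. Hedgehog pathway genes had 0.215, oligodendrocyte progenitor markers 0.125 and chemokine ligand genes 0.106. SOX9 cartilage target genes had -0.0341, ribosomal protein genes -0.0282 and Schwann cell markers -0.00841. No lymphocyte marker held enough fragments there, so this list has no value in that setting. Without the 5 kb before the start site the median was 0.0787 for neutrophil and monocyte markers and 0.0746 for oligodendrocyte progenitor markers. It was then 0.0355 for mural and fibroblast markers, 0.0266 for Notch pathway genes, -0.0919 for AP-1 subunit genes and -0.04 for ribosomal protein genes. Among the medians that turned without thinning were 0.0993 (chemokine ligand genes), 0.0172 (ependymal markers) and -0.0479 (AP-1 subunit genes).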
